A study of Mus musculus and Homo sapiens with 176 samples.

Results

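Axon guidance ligands and receptors are the secreted and membrane proteins that steer growing axons and that, in the adult brain, remain on synapses, dendrites and glia. Members were taken by gene name: ephrin receptors of the A and B classes (Epha, Ephb), ephrins (Efna, Efnb), semaphorins of classes 3 to 7 (Sema), plexins (Plxn), neuropilins (Nrp1, Nrp2), Slits 1 to 3, Robo receptors 1 to 4, netrins (Ntn followed by a digit), Dcc and the Unc5 receptors. The rule matched 70 of 24854 features in each table, of which 35 are ligand genes, 34 are receptor genes and 1, Plxna4os1, is an RNA named for its position antisense to Plxna4. RNA of sorted nuclei was sequenced from C57BL/6 tissue of 1 mouse, called M3, aged 8 to 10 weeks by the labels, with no other genotype or treatment stated. Nuclei of prefrontal cortex and of cerebellum were stained for NeuN, the neuronal antigen that the gene Rbfox3 encodes, and sorted into NeuN+ and NeuN- fractions, called gates below. The 4 groups, NeuN+ and NeuN- of each region, have 2 libraries each. The labels do not say that the libraries of a group came from separate sorts, and all come from the same animal, so the p-values below measure only how far libraries differ, and that spread may be technical.

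Ephrins are held on the cell surface and signal through Eph receptor tyrosine kinases on contact, in both directions. Secreted class 3 semaphorins act mostly through a neuropilin and a plexin together, and membrane semaphorins bind plexins directly. Slits act on Robo receptors and mostly repel. Netrin 1 attracts axons that carry Dcc and can repel axons that carry Unc5 receptors.

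The tables list FPKM, fragments relative to transcript length and library size, so levels of different genes can be compared per length. Values below are scaled FPKM, after a median-of-ratios factor for each library (0.878 to 1.05). The FPKM of a library summed to between 289350 and 426851, and the relative depth of the libraries ran from 1 to 1.52 times the shallowest (prefrontal NeuN+ replicate 1), with the absolute depth unknown. Rbfox3 stood at 16.9 and 16.4 in prefrontal NeuN+, 12.5 and 11.1 in prefrontal NeuN-, and then 128 and 123 in the NeuN+ and 34.7 and 35.7 in the NeuN- libraries of cerebellum, so it was higher in NeuN+ in both regions (limma adjusted p = 5.5e-04 and 1.3e-06) but by only 1.39-fold in prefrontal cortex, against 3.51-fold in cerebellum. The labelled sort was less clear in prefrontal cortex by general neuronal markers too. There, 12 general neuronal markers summed to 1576 and 1561 in NeuN+ and to 1944 and 2071 in NeuN-, with 5 called higher and 5 called lower in NeuN+. Snap25 alone gave 1026 and 1021 against 1387 and 1492 of that, and the other 11 summed to 550.2 and 539.8 in NeuN+ and to 557 and 579 in NeuN-. Markers of cortical excitatory neurons summed to 59.6 and 60.3 in prefrontal NeuN+ and to 35.7 and 28.9 in prefrontal NeuN-. Of the 8 tested, 6 were called higher in NeuN+ and 0 lower. Of 8 cortical interneuron markers, 4 were called higher and 1 lower. Glial markers separated further there: 10 oligodendrocyte markers summed to 106 and 99.4 in NeuN+ and to 2183 and 2192 in NeuN-, and 10 astrocyte markers to 72.9 and 72.7 against 844 and 882. In cerebellum the 12 neuronal markers summed to 1401 and 1410 in NeuN+ and 738 and 750 in NeuN-, and 10 granule cell markers to 953 and 951 against 303 and 299. No marker of the neuronal, astrocyte or oligodendrocyte lists was at 0 in both libraries of any group. NeuN- therefore names a gate here and not a cell type, and in bulk libraries fewer cells of a type and less RNA per cell cannot be told apart.

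Of the 70 members, 55 passed the filter of at least 1 FPKM in at least 2 libraries and were tested among 14376 features: 28 receptors, 26 ligands and the antisense RNA. The 15 that did not pass were Epha2, Epha8, Ephb4, Efna3, Efnb1, Sema3f, Sema3g, Sema4c, Sema6b, Sema6c, Sema7a, Plxnb2, Plxnd1, Slit1 and Robo4. Their highest library value was 1.72, for Sema7a, and Sema3g was listed at 0 in every library. Of the members that passed, 15 reached 1 FPKM in all 4 groups. Another 9 did so in 1 group only and passed because they were high there, so counts of calls over the 55 describe them and support nothing about the families. Prefrontal NeuN+ held the highest mean of 18 members, cerebellar NeuN- of 14, cerebellar NeuN+ of 12 and prefrontal NeuN- of 11. In prefrontal NeuN+ the median level was 3.45 over receptors and 1.24 over ligands, and the highest members were the Eph receptor genes Ephb6, Epha7 and Epha10. The leading members of the other groups were Ephb6, Epha7 and Epha4 in prefrontal NeuN-, Sema4f, Epha3 and Unc5c in cerebellar NeuN+, and Plxnb1, Efnb3 and Sema6d in cerebellar NeuN-.

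**Figure D1:**
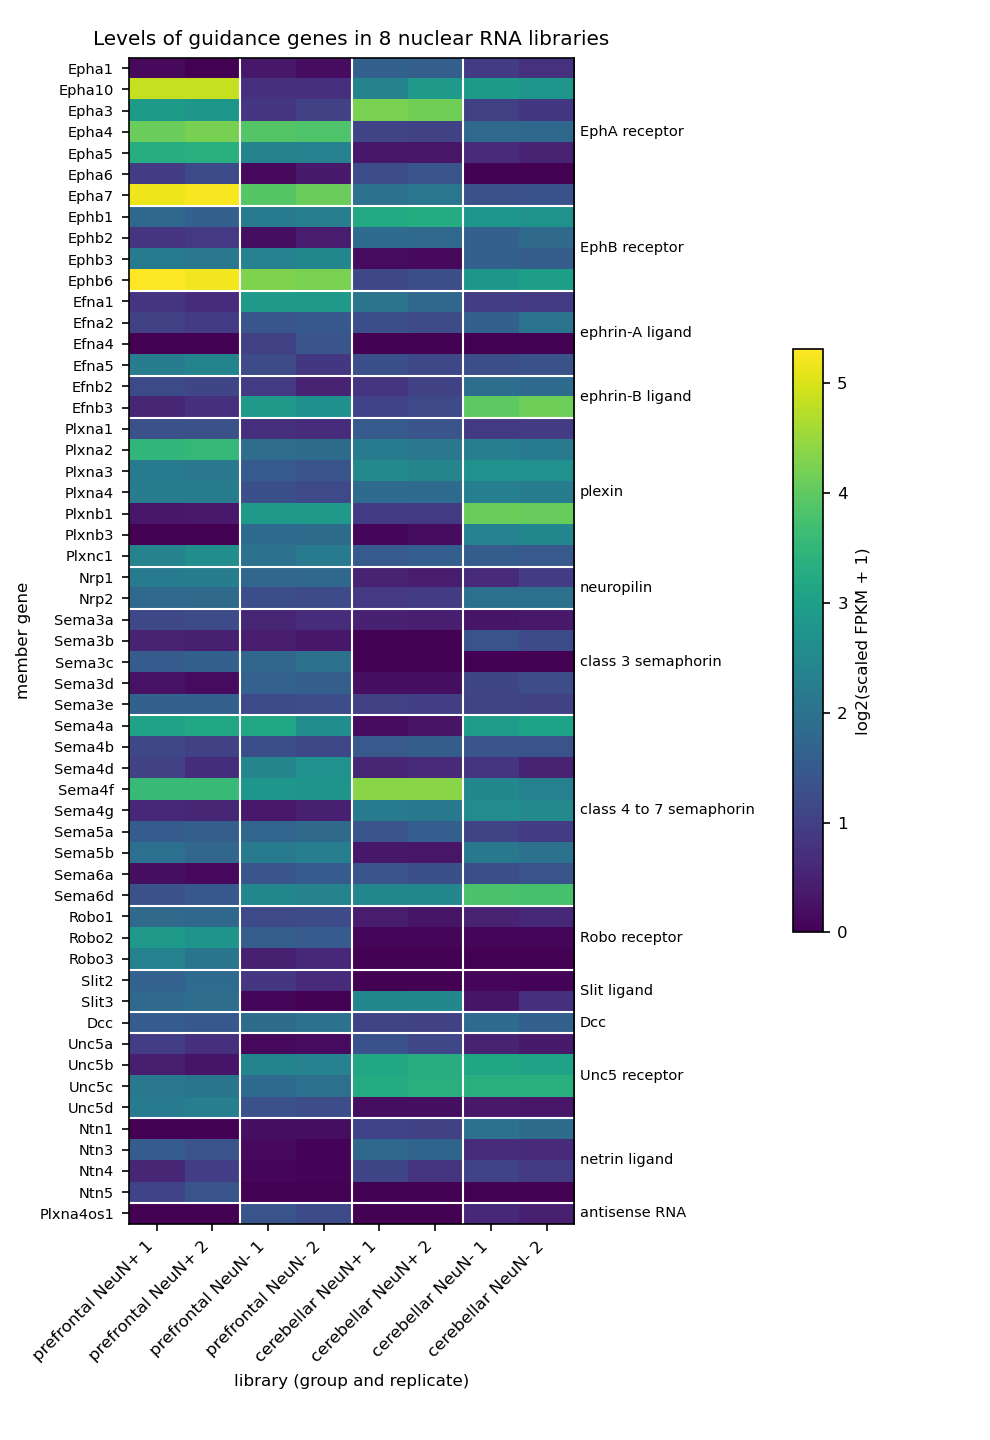
Levels of the 55 tested guidance genes, as log2(scaled FPKM + 1), in the 8 libraries (columns, in pairs by group), with genes in rows ordered by family. The brightest cells are Ephb6, Epha7 and Epha10 in prefrontal NeuN+, and the 2 libraries of a group look alike for most genes.

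The comparison of NeuN+ with NeuN- in prefrontal cortex asked which guidance genes separate the gates there. Of the 55 members, 31 were called higher in NeuN+ and 18 lower, at a limma adjusted p under 0.05. Over all features tested, 35.0% were called higher and 37.6% lower, so calls in either direction were common. The median log2 change was 0.41 over the members and -0.01 over all features. By role, 21 of 28 receptors were called higher and 6 lower, with a median of 0.62, while ligands were divided, with 10 of 26 higher and 11 lower. All 3 tested Robo genes, both neuropilins and 6 of 7 EphA genes were among those called higher, with Epha4 losing its call in unscaled FPKM. These families are named after their counts were seen, and the 9 semaphorins of classes 4 to 7 gave 1 higher and 4 lower calls. Members lower in NeuN+ by at least 2-fold numbered 11, led by Plxnb1, Efna1 and Efnb3, and those higher by at least 2-fold numbered 12, led by Epha10. With a pseudocount of 0.1 in place of 1 these became 13 and 21. The share of all features that reached 2-fold was not counted. Leaving out prefrontal NeuN- replicate 2 cut the lower calls to 11 of 53 members tested. All 10 oligodendrocyte, all 10 astrocyte and all 8 tested microglial markers were lower in NeuN+ in the same comparison. The part of those cells in the members' values was not tested.

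In cerebellum more members were called lower in NeuN+ than higher. The comparison gave 12 members called higher and 23 called lower, against 32.4% and 39.2% of all features, and 20 members were not called. The median log2 change was -0.08 over the members and -0.04 over all features. Of the receptors, 7 of 28 were called higher and 12 lower, and of the ligands, 5 of 26 higher and 10 lower. This count depends on the scaling: under quantile normalization 26 members were called higher and 16 lower, which took the share of higher calls from 34.3% to 61.9%. Changes of at least 2-fold moved less, from 5 higher and 10 lower to 9 higher and 8 lower, and with a pseudocount of 0.1 they numbered 8 and 16. Here too, all features were not counted at 2-fold. All 10 astrocyte and all 10 oligodendrocyte markers were lower in NeuN+ here as well, and all 10 granule cell markers were higher. Other neuronal lists did not follow the granule cell list. Of 7 tested cerebellar inhibitory interneuron markers, 1 was called higher and 6 lower in NeuN+. That list summed to 302.5 and 305.3 in NeuN+ and to 506.5 and 511.4 in NeuN-. Pvalb alone gave 273.3 and 276 of the NeuN+ sums and 395.2 and 401.5 of the NeuN- sums. Of 8 Purkinje cell markers, 3 were called higher and 1 lower. The part of these cell types in the members' values was not tested.

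**Figure D2:**
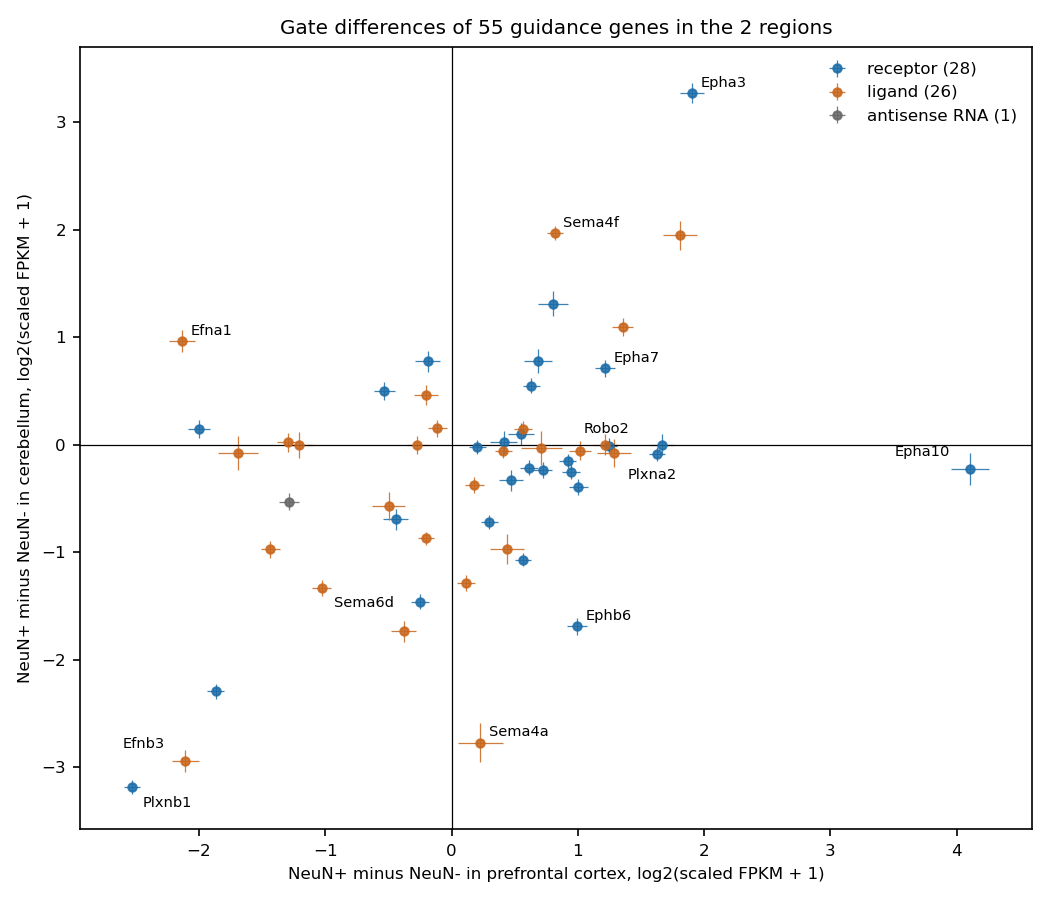
NeuN+ minus NeuN- difference of each of the 55 tested members in prefrontal cortex (x axis) and in cerebellum (y axis), on the log2(scaled FPKM + 1) scale, with bars of 1 standard error from limma and colours for receptors, ligands and the antisense RNA. Epha3 is high on both axes, Plxnb1 and Efnb3 are low on both, and Epha10 lies far to the right at a cerebellar difference of -0.22.

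Read together, the gate comparisons gave 8 members called higher in NeuN+ in both regions and 11 called lower in both. Another 9 were called higher in prefrontal NeuN+ and lower in cerebellar NeuN+, and 2 (Efna1 and Ephb1) were called lower in prefrontal NeuN+ and higher in cerebellar NeuN+. The share of all features with such paired calls was not counted. These counts therefore list members and show nothing particular to guidance genes. Of the 9, only Efnb2, Epha4, Ephb6 and Nrp2 kept both calls under quantile normalization, where Epha5, Nrp1 and Robo1 turned their cerebellar sign and Plxna3 and Plxna4 lost their cerebellar call, and 18 members were then called higher in NeuN+ in both regions. In unscaled FPKM, Efnb2 and Epha4 lost their prefrontal call. The 11 called lower in both regions became 6 without prefrontal NeuN- replicate 2 and 7 without prefrontal NeuN+ replicate 2. The difference of the gate changes was itself tested: it was called lower in cerebellum for 32 members and higher for 13, against 37.0% and 33.1% of all features, with a median of -0.47 over the members and -0.06 over all features. With a pseudocount of 0.1 the calls numbered 27 lower and 12 higher. Robo3 and Ntn5, called lower, and Efna4, called higher, were listed at 0 in every cerebellar library. For these genes the difference is the prefrontal change with its sign reversed. Robo2 and Slit2, also called lower, were near 0 in every cerebellar library.

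Between the regions, in NeuN+ nuclei, 19 members were called higher in cerebellum and 25 lower, against 36.5% and 40.7% of all features, and the medians were -0.09 and -0.03. Receptors gave 16 lower calls and 9 higher calls of 28, with a median of -0.68; ligands gave 9 lower and 10 higher of 26. Differences of at least 2-fold were called lower for 18 members and higher for 10. All features were not counted at that cutoff, so no lean of the members is read from it. Markers of cortical excitatory neurons summed to 59.6 and 60.3 in prefrontal NeuN+ and to 5.43 and 5.31 in cerebellar NeuN+, where Tbr1 and Fezf2 were at 0. Granule cell markers summed to 26.9 and 27.3 against 953 and 951, with Gabra6, Fat2 and Zic2 at 0 in prefrontal NeuN+. The regional difference in neuron types and the members' differences cannot be told apart in these libraries.

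In NeuN- nuclei, 24 members were called higher in cerebellum and 22 lower, against 40.5% and 39.0% of all features, shares close to the background in both directions. The medians were 0.00 for the members and 0.02 for all features. Of the plexins, 6 of 7 were called higher in cerebellar NeuN-, while all 3 Robo genes and 4 of 5 class 3 semaphorins were called lower. These families are named after their counts were seen, and the 7 EphA genes gave 2 higher and 3 lower calls. In the named families, Plxna1 lost its call in unscaled FPKM and when any NeuN- library but prefrontal replicate 1 was left out. Sema3a lost its call under quantile normalization and without cerebellar NeuN- replicate 1. Sema3e turned its sign with equal library sums and lost its call when any 1 of the 4 libraries was left out. Calls in the same direction in both gates were made for 14 members higher in cerebellum and 15 lower. Opposite calls were made for 7 members, of which Epha10 had the largest difference in each gate. How many of all features had the same or opposite calls in both gates was not counted. Nothing particular to the members is drawn from these joint counts. In NeuN- 9 microglial markers summed to 700 and 716 in prefrontal cortex and to 70.2 and 70.3 in cerebellum, where C1qa was at 0, and the Bergmann glia list summed to 869 and 900 against 1788 and 1769. Sept4 alone gave 456 and 468 of the prefrontal Bergmann sums and 1020 and 1007 of the cerebellar ones. Neuronal lists differed in NeuN- as well. Granule cell markers summed to 41.1 and 44.5 in prefrontal cortex and to 303 and 299 in cerebellum. Purkinje cell markers gave 646 and 568 against 1252 and 1311, and cortical excitatory neuron markers 35.7 and 28.9 against 3.4 and 3.4. Pcp4 alone gave 597 and 516 of the prefrontal Purkinje sums and 767 and 794 of the cerebellar ones. Pcp2 stood at 2.04 and 3.70 in prefrontal NeuN- and at 372 and 403 in cerebellar NeuN-. Of the 8 Purkinje markers, 7 were called higher in cerebellar NeuN- and 1 lower. The part of these cell types in the members' values was not tested.

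**Figure D3:**
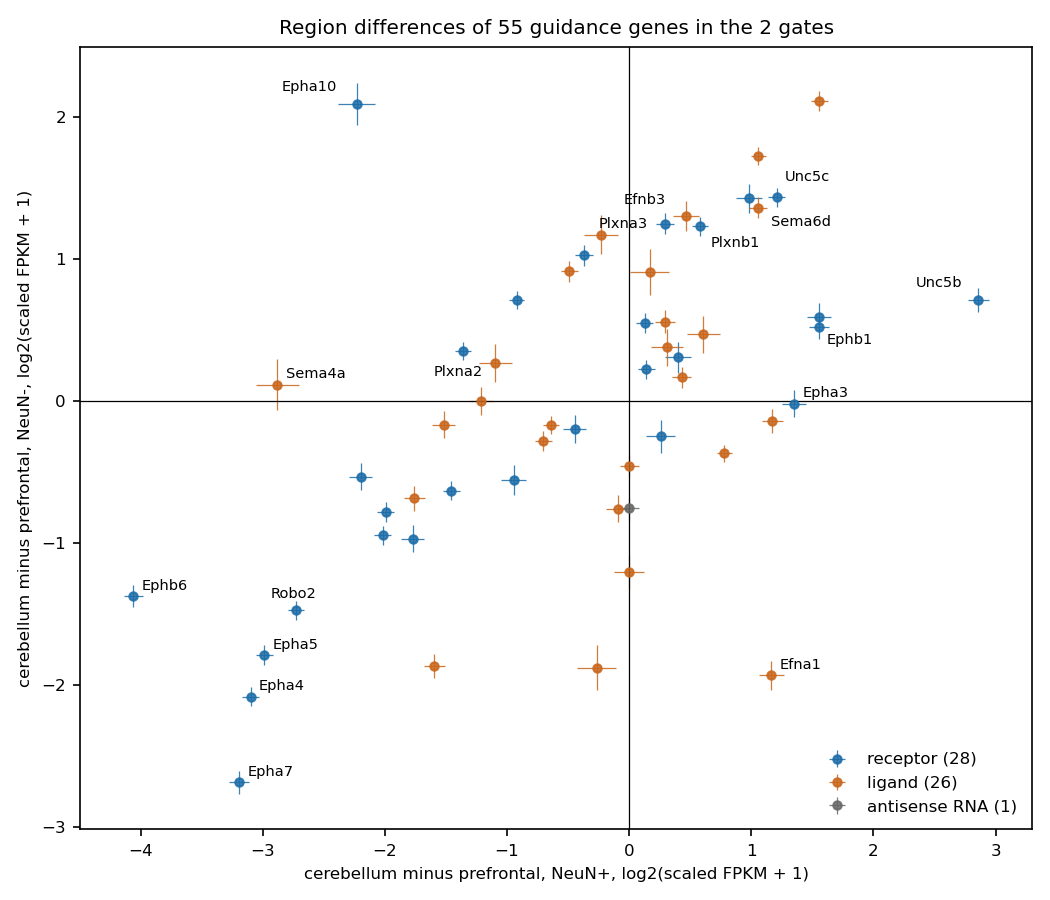
Cerebellum minus prefrontal cortex difference of each of the 55 tested members in NeuN+ (x axis) and in NeuN- (y axis), on the log2(scaled FPKM + 1) scale, with bars of 1 standard error from limma. Epha4, Epha5, Epha7, Ephb6 and Robo2 lie at the lower left, Unc5c and Sema6d at the upper right, and Epha10 at the upper left.

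Among the receptors, Epha10 encodes an Eph receptor that lacks kinase activity. It stood at 27.9 and 27.6 scaled FPKM in prefrontal NeuN+, 0.668 and 0.672 in prefrontal NeuN-, and then 4.16 and 6.24 in the NeuN+ and 6.41 and 5.88 in the NeuN- libraries of cerebellum. The prefrontal gates were far apart, with both prefrontal NeuN+ libraries above all others. In cerebellum NeuN+ replicate 1 was below both NeuN- libraries and replicate 2 lay between them, so how close the cerebellar gates lie depends on replicate 2. On the scale of FPKM + 1, which is used for every fold below, Epha10 was 17.2-fold higher in prefrontal NeuN+ than in prefrontal NeuN- (log2 4.10, SE 0.15, limma adjusted p = 1.5e-06). In cerebellum the log2 gate difference was -0.22 ± 0.36 (95% interval, limma adjusted p = 0.22). It was 4.70-fold lower in cerebellum in NeuN+ and 4.27-fold higher there in NeuN-. Epha10 (chromosome 4, 124559029 to 124595044, mm9) overlaps the feature 1700125G02Rik in the tables, and whether strand was used is not stated, so fragments could be shared.

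Epha3, a receptor for ephrin-A ligands, followed the NeuN+ gate in both regions. It stood at 6.40 and 5.99 in prefrontal NeuN+, 0.792 and 1.06 in prefrontal NeuN-, and then 17.9 and 16.8 in the NeuN+ and 0.995 and 0.809 in the NeuN- libraries of cerebellum. The NeuN- libraries of both regions were alike, and the NeuN+ libraries rose well above them, more so in cerebellum. It was 3.74-fold higher in NeuN+ in prefrontal cortex (limma adjusted p = 6.0e-06) and 9.64-fold higher in the cerebellum (SE of log2 0.10, limma adjusted p = 8.1e-07). Between the regions it was 2.55-fold higher in cerebellar NeuN+, while the NeuN- difference was -0.02 ± 0.23 on the log2 scale (95% interval, limma adjusted p = 0.88). The gene lies at chromosome 16, 63545044 to 63863983, and gene positions below are on mm9 as well.

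Epha7, Epha4 and Epha5 were higher in prefrontal cortex in both gates. Epha7 (chromosome 4, 28740281 to 28894653) stood at 35.4 and 37.4 in prefrontal NeuN+, 14.1 and 16.1 in prefrontal NeuN-, and then 2.95 and 3.22 in the NeuN+ and 1.48 and 1.52 in the NeuN- libraries of cerebellum. Epha4 (chromosome 1, 77363760 to 77511663), which binds ephrins of both classes, stood at 16.2 and 17.8, then 13.8 and 13.5, then 1.12 and 1.07, then 2.50 and 2.41 in the same order of groups. Epha5 (chromosome 5, 84483788 to 84846407) stood at 8.90 and 9.03, then 4.21 and 4.15, then 0.266 and 0.247, then 0.559 and 0.441. For each of the 3 genes all prefrontal libraries were above all cerebellar ones. In NeuN+, cerebellum was lower by 9.15-fold for Epha7, 8.57-fold for Epha4 and 7.93-fold for Epha5 (limma adjusted p of 2.5e-07 or less for each). In NeuN-, cerebellum was lower by 6.43-fold for Epha7 and 4.23-fold for Epha4. Epha7 was also higher in NeuN+ than in NeuN-, by 2.33-fold in prefrontal cortex and 1.63-fold in cerebellum. The other tested EphA genes, Epha1 and Epha6, did not exceed 2.14 in any library.

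Of the EphB genes, Ephb6 (chromosome 6, 41555481 to 41570506), which also encodes a receptor without kinase activity, was the highest member in prefrontal cortex. It stood at 38.7 and 36.2 in prefrontal NeuN+, 18.5 and 18.0 in prefrontal NeuN-, and then 1.20 and 1.41 in the NeuN+ and 6.04 and 6.86 in the NeuN- libraries of cerebellum. The gates did not overlap in either region and stood in opposite order. NeuN+ was 2.00-fold higher in prefrontal cortex and 3.23-fold lower in cerebellum (limma adjusted p = 4.6e-05 and 4.2e-06), and cerebellum was 16.7-fold lower in NeuN+ (log2 -4.06, SE 0.08, limma adjusted p = 1.3e-07) and 2.59-fold lower in NeuN-. Ephb1 (chromosome 9, 101824458 to 102257023) took the reverse course, at 2.47 and 2.08 in prefrontal NeuN+, 3.62 and 3.84 in prefrontal NeuN-, and then 8.42 and 8.74 in the NeuN+ and 5.95 and 5.60 in the NeuN- libraries of cerebellum. It was 1.45-fold lower in NeuN+ in prefrontal cortex but 1.41-fold higher in the cerebellum (limma adjusted p = 0.0011 and 0.0014), and 2.93-fold higher in cerebellum in NeuN+.

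To show the sequence before genes that moved in different ways, the 250 bases ahead of the RefSeq start were read for Epha10 (high in prefrontal NeuN+), Epha3 (high in NeuN+ of both regions), Ephb6 (opposite gate orders) and, below, Plxnb1 (high in NeuN- of both regions). The GC box GGGCGG and its reverse complement CCGCCC are in capitals. Coordinates are those of the RefSeq table, build GRCm38.p6, and the genes shown lie on the + strand except Epha3.
Epha10, chr4:124881535-124881784: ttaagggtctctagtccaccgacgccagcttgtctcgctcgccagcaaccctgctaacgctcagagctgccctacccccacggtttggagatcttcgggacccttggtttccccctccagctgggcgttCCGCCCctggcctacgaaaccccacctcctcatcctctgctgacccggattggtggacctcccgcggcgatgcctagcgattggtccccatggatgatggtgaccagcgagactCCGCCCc
Epha3, chr16:63864176-63864425, - strand: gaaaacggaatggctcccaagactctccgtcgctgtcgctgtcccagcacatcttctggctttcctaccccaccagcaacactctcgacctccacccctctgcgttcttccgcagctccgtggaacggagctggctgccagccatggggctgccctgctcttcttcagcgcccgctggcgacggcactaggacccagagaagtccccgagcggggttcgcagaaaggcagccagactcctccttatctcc
Ephb6, chr6:41605261-41605510: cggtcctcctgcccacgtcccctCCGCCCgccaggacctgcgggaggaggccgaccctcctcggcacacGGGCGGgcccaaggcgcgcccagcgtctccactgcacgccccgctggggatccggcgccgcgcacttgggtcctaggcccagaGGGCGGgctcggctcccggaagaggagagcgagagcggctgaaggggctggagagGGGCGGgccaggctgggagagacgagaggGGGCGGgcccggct
The window of Epha10 holds 2 GC boxes and 17 CpG dinucleotides, that of Epha3 holds 0 GC boxes and 16 CpG, and that of Ephb6 holds 5 GC boxes and 27 CpG. RefSeq windows were matched for 59 of the 70 members by symbol, 75 windows in all. A GC box on either strand was in 53 of them (70.7%), against 32.7% of 32851 windows of all genes and 42.6% of 21262 windows of protein coding genes. The median number of CpG was 15 in the members' windows, 6 in all windows and 10 in those of protein coding genes. The TATAAA motif was in 2 of the 75 (2.67%, against 12.4% of all windows and 11.6% of those of protein coding genes). CAGATG, a sequence bound by NeuroD factors, was in 5 (6.67%, against 14.4% of all windows and 12.4% of those of protein coding genes). Neither motif is in the windows printed here. Several windows belong to the same gene, and a match is a description of letters and not of a bound site.

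Among the ephrins, the ligands of the Eph receptors, Efna1 (chromosome 3, 89075652 to 89084873) had opposite gate differences. It stood at 0.744 and 0.603 in prefrontal NeuN+, 6.37 and 6.31 in prefrontal NeuN-, and then 3.10 and 2.43 in the NeuN+ and 0.969 and 0.876 in the NeuN- libraries of cerebellum. Its highest libraries were those of prefrontal NeuN-. NeuN+ was 4.39-fold lower in prefrontal cortex (limma adjusted p = 4.6e-06) but 1.95-fold higher in the cerebellum (limma adjusted p = 1.7e-04), and cerebellum was 2.24-fold higher in NeuN+ and 3.82-fold lower in NeuN-. Efnb3 (chromosome 11, 69367594 to 69373739), a transmembrane ephrin known from myelin, stood at 0.487 and 0.673 in prefrontal NeuN+, 6.28 and 5.34 in prefrontal NeuN-, and then 1.11 and 1.25 in the NeuN+ and 15.0 and 16.5 in the NeuN- libraries of cerebellum. The NeuN- libraries were the higher in both regions, and the cerebellar ones were highest. NeuN+ was 4.31-fold lower in prefrontal cortex and 7.68-fold lower in cerebellum (limma adjusted p = 5.5e-06 and 1.4e-06). The remaining tested ephrins, Efna2, Efna4, Efna5 and Efnb2, did not exceed 4.30 in any library, and Efna4 was listed at 0 in all libraries but those of prefrontal NeuN-, where it was at 1.01 and 1.65.

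Plexins are the signalling receptors of semaphorins. Plxnb1 (chromosome 9, 108997950 to 109022429), a receptor of Sema4d, stood at 0.248 and 0.277 in prefrontal NeuN+, 6.34 and 6.24 in prefrontal NeuN-, and then 0.922 and 0.859 in the NeuN+ and 16.4 and 15.9 in the NeuN- libraries of cerebellum. NeuN- was far above NeuN+ in both regions, and it was the leading member in cerebellar NeuN-. NeuN+ was 5.78-fold lower in prefrontal cortex and 9.05-fold lower in cerebellum (limma adjusted p = 4.1e-07 and 2.9e-07), and cerebellum was 2.35-fold higher in NeuN-. Plxnb3, named here although it was under the level set for named genes, had the same order, listed at 0 in the NeuN+ libraries of prefrontal cortex, with 2.63 and 2.67 in prefrontal NeuN-, and then 0.0639 and 0.122 in the NeuN+ and 4.15 and 4.56 in the NeuN- libraries of cerebellum. Plxnb2, which was not tested, had that order in prefrontal cortex, at 0.0741 and 0.0481 in NeuN+ and 0.287 and 0.505 in NeuN-. In cerebellum it had the reverse order, at 0.655 and 0.699 in NeuN+ and 0.301 and 0.314 in NeuN-. All of its values were under 1 FPKM. The 250 bases ahead of the Plxnb1 start, shown for comparison with the Eph genes and with GC boxes in capitals, hold 4 GC boxes and 30 CpG.
Plxnb1, chr9:109095186-109095435: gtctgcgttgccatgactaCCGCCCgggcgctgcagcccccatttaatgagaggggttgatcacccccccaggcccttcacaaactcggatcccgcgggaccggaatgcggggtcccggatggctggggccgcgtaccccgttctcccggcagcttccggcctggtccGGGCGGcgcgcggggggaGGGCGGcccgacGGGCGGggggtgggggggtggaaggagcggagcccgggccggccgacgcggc

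The A-class plexins pair with neuropilins for class 3 semaphorins. All 4 were called higher in prefrontal NeuN+, while in cerebellar NeuN+ Plxna1 was called higher, Plxna3 and Plxna4 lower, and Plxna2 was not called. Plxna2 (chromosome 1, 196446023 to 196643062) stood at 10.2 and 10.6 in prefrontal NeuN+, 2.73 and 2.66 in prefrontal NeuN-, and then 3.50 and 3.39 in the NeuN+ and 3.84 and 3.62 in the NeuN- libraries of cerebellum. Prefrontal NeuN+ stood alone, and the cerebellar gates were close. It was 3.09-fold higher in NeuN+ in prefrontal cortex (log2 1.63, SE 0.06, limma adjusted p = 2.0e-06), and its cerebellar gate difference was -0.09 ± 0.15 on the log2 scale (95% interval, limma adjusted p = 0.25). In NeuN+ it was 2.57-fold lower in cerebellum. Plxna3 (chromosome X, 71574405 to 71590028) was named for the NeuN- region comparison, in which it was 2.38-fold higher in cerebellum (limma adjusted p = 8.2e-06), at 1.82 and 1.62 in prefrontal NeuN- and 5.44 and 5.48 in cerebellar NeuN-. Its NeuN+ libraries stood at 3.59 and 3.38 in prefrontal cortex and 4.66 and 4.32 in cerebellum. Plxna1 did not exceed 1.88 in any library. Plxna4, whose locus holds the antisense RNA Plxna4os1, stood at 3.71 and 3.71 in prefrontal NeuN+, 1.45 and 1.24 in prefrontal NeuN-, and then 2.64 and 2.63 in the NeuN+ and 3.89 and 3.67 in the NeuN- libraries of cerebellum. The neuropilin genes Nrp1 and Nrp2 did not exceed 3.75 in any library.

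**Figure D4:**
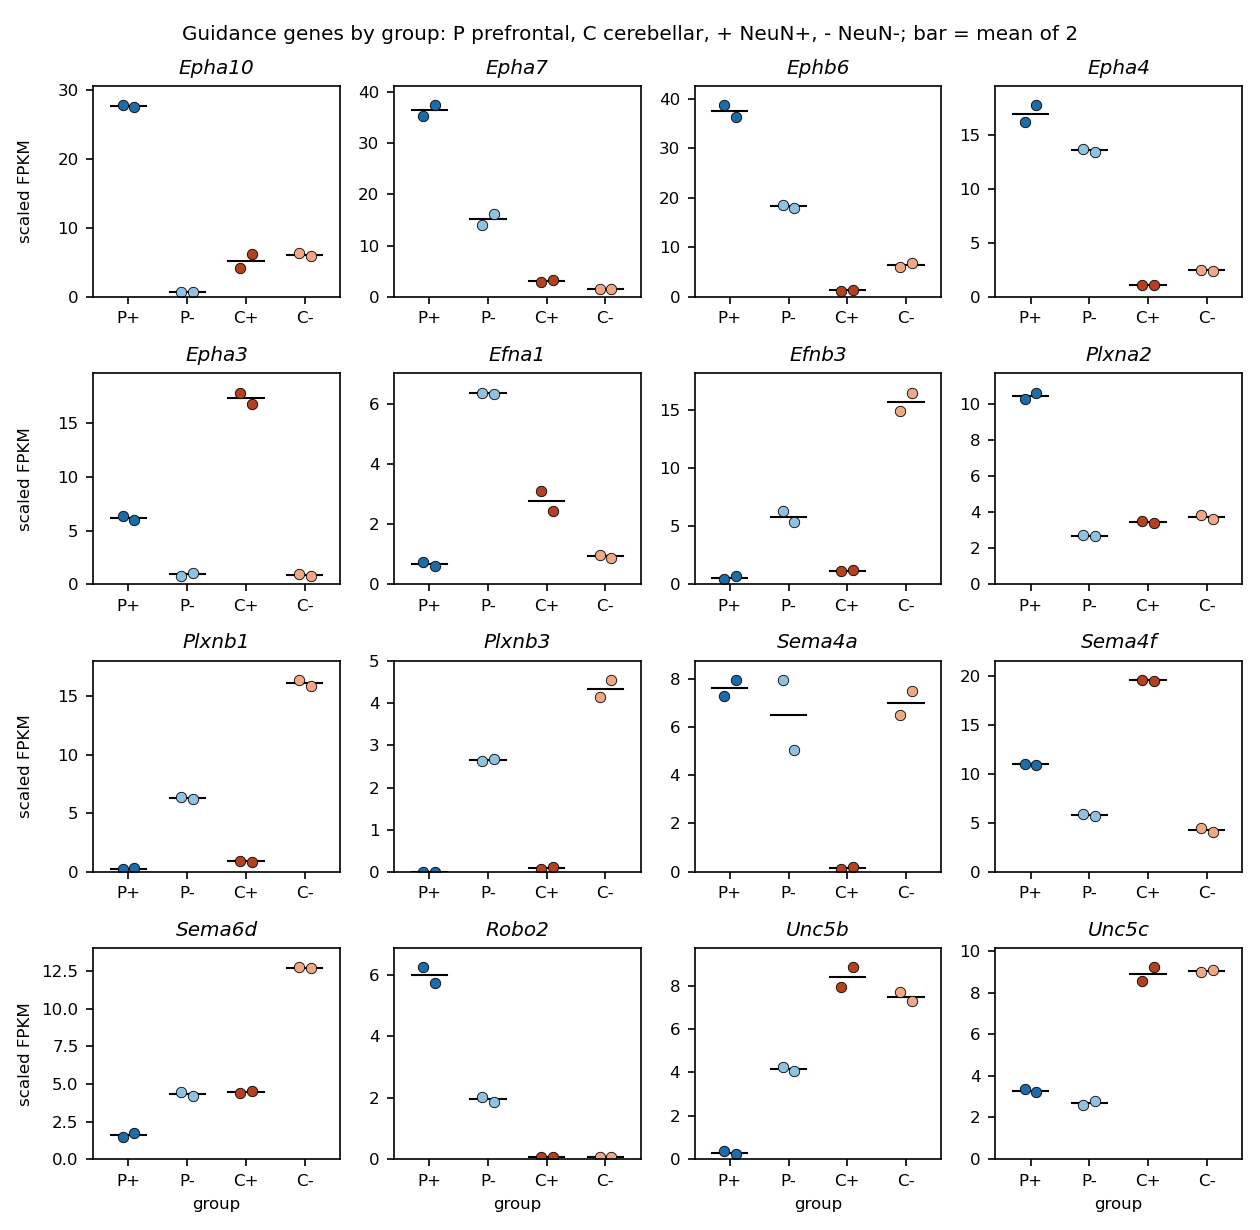
Scaled FPKM of 16 guidance genes in the 4 groups (P prefrontal, C cerebellar, + NeuN+, - NeuN-), with 1 point per library, a bar at the mean of 2 and a separate linear y axis from 0 for each gene. Epha10, Plxna2 and Robo2 peak in prefrontal NeuN+, Epha3 and Sema4f in cerebellar NeuN+, Efna1 in prefrontal NeuN-, and Plxnb1, Plxnb3, Efnb3 and Sema6d in cerebellar NeuN-.

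Among the semaphorins, the membrane class 4 ligand gene Sema4f (chromosome 6, 82861879 to 82889763) was the highest member in cerebellar NeuN+. It stood at 11.0 and 10.9 in prefrontal NeuN+, 5.88 and 5.72 in prefrontal NeuN-, and then 19.6 and 19.6 in the NeuN+ and 4.51 and 4.03 in the NeuN- libraries of cerebellum. NeuN+ was above NeuN- in both regions without overlap, by 1.76-fold in prefrontal cortex and 3.91-fold in cerebellum (limma adjusted p = 3.5e-05 and 9.7e-07). Sema4a (chromosome 3, 88239884 to 88265104), also a membrane ligand, stood at 7.30 and 7.95 in prefrontal NeuN+, 7.93 and 5.06 in prefrontal NeuN-, and then 0.131 and 0.211 in the NeuN+ and 6.51 and 7.48 in the NeuN- libraries of cerebellum. Cerebellar NeuN+ was low and the other 3 groups overlapped. NeuN+ was 6.82-fold lower in cerebellum (limma adjusted p = 1.6e-05), and in NeuN+ cerebellum was 7.37-fold lower than prefrontal cortex (limma adjusted p = 1.0e-05). Its prefrontal gate difference was 0.23 ± 0.43 on the log2 scale (95% interval, limma adjusted p = 0.28). The prefrontal NeuN- libraries differed by more than the estimate's own error: in the authors' deposited table Sema4a is at 9.03 FPKM with limits of 8.16 and 9.89 in replicate 1 and at 5.65 with limits of 4.95 and 6.35 in replicate 2.

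Sema6d (chromosome 2, 123915705 to 124493525), a membrane ligand of A-class plexins, stood at 1.49 and 1.74 in prefrontal NeuN+, 4.47 and 4.20 in prefrontal NeuN-, and then 4.38 and 4.50 in the NeuN+ and 12.8 and 12.7 in the NeuN- libraries of cerebellum. It was the higher in NeuN- and the higher in cerebellum. NeuN+ was 2.04-fold lower in prefrontal cortex and 2.52-fold lower in cerebellum (limma adjusted p = 2.6e-05 and 7.6e-06), and cerebellum was 2.08-fold higher in NeuN+ and 2.57-fold higher in NeuN-. No class 3 semaphorin, the secreted ligands, exceeded 2.92 in any library. Sema3c stood at 1.93 to 2.92 in the 4 prefrontal libraries and was listed at 0 in the 4 cerebellar ones.

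Robo genes, a family that includes the receptors of Slits, were higher in prefrontal cortex in both gates. Robo2 (chromosome 16, 73892551 to 74411157) stood at 6.24 and 5.74 in prefrontal NeuN+, 2.03 and 1.87 in prefrontal NeuN-, and then 0.0553 and 0.0557 in the NeuN+ and 0.0684 and 0.0556 in the NeuN- libraries of cerebellum. Both cerebellar groups were near 0, and the prefrontal gates did not overlap. It was 2.37-fold higher in NeuN+ in prefrontal cortex (limma adjusted p = 8.2e-06), with a cerebellar gate difference of -0.01 ± 0.16 (log2, 95% interval, limma adjusted p = 0.93) at levels too low to show one. Cerebellum was 6.62-fold lower in NeuN+ and 2.78-fold lower in NeuN- (limma adjusted p = 2.6e-07 and 3.2e-06).

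The genes of the other Robos and of the Slits stayed under 5 FPKM and are named after their values were seen. Robo3 stood at 4.01 and 3.20 in prefrontal NeuN+ and 0.387 and 0.508 in prefrontal NeuN-, and was listed at 0 in all cerebellar libraries. Slit2 was at 2.20 and 2.61 in prefrontal NeuN+, 0.788 and 0.577 in prefrontal NeuN- and no more than 0.0566 in a cerebellar library. Slit3 followed the gate: it stood at 2.51 and 2.71 in prefrontal NeuN+, 0.0535 and 0.00998 in prefrontal NeuN-, and then 4.42 and 4.59 in the NeuN+ and 0.238 and 0.649 in the NeuN- libraries of cerebellum. Slit2 and Slit3 each contain a Mir218 gene in the tables.

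Of the netrin receptors, Unc5b and Unc5c were higher in cerebellum in both gates. Unc5b (chromosome 10, 60225343 to 60294329) stood at 0.364 and 0.229 in prefrontal NeuN+, 4.26 and 4.09 in prefrontal NeuN-, and then 7.95 and 8.85 in the NeuN+ and 7.69 and 7.30 in the NeuN- libraries of cerebellum. Prefrontal NeuN+ was the low group and the cerebellar gates lay close. Cerebellum was 7.25-fold higher in NeuN+ (log2 2.86, SE 0.09, limma adjusted p = 4.9e-07) and 1.64-fold higher in NeuN-, and the cerebellar gate difference was 0.15 ± 0.21 on the log2 scale (95% interval, limma adjusted p = 0.17). Unc5c (chromosome 3, 141128528 to 141497888) stood at 3.35 and 3.20 in prefrontal NeuN+, 2.61 and 2.81 in prefrontal NeuN-, and then 8.57 and 9.21 in the NeuN+ and 9.01 and 9.08 in the NeuN- libraries of cerebellum. All of its cerebellar libraries were above all prefrontal ones. Cerebellum was 2.31-fold higher in NeuN+ and 2.71-fold higher in NeuN- (limma adjusted p = 6.2e-06 and 3.2e-06). Unc5d, under the level set for named genes, had the opposite regional order, at 3.49 and 3.80 in prefrontal NeuN+, a mean of 1.45 (SD 0.0701, n = 2) in prefrontal NeuN-, and then 0.151 and 0.139 in the NeuN+ and 0.291 and 0.254 in the NeuN- libraries of cerebellum. It was 4.05-fold lower in cerebellum in NeuN+ and 1.93-fold lower in NeuN- (limma adjusted p = 6.8e-07 and 1.7e-05). Unc5a did not exceed 1.51 in any library.

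Dcc, the attractive netrin receptor, lay between 1.03 and 3.03 in all libraries. Of the ligands, named after their values were seen, Ntn1 was listed at 0 in prefrontal NeuN+ and stood at 0.162 and 0.138 in prefrontal NeuN-, and then 1.09 and 1.08 in the NeuN+ and 2.94 and 2.67 in the NeuN- libraries of cerebellum. Ntn5 was at 1.09 and 1.58 in prefrontal NeuN+ and listed at 0 in the other 6 libraries, and it overlaps Sec1 in the tables. In all, 20 members overlap another listed feature, mostly a microRNA gene or a clone-named transcript.

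Of the genes that act with these members, 5 lists were counted in the gate comparisons, to be read against the 35.0% higher and 37.6% lower of all features in prefrontal cortex and the 32.4% and 39.2% in cerebellum. Nothing particular to a list is drawn from its counts. Of 21 tested effectors of Eph and ephrin signalling, 10 were called higher and 7 lower in prefrontal NeuN+, and 6 higher and 10 lower in cerebellar NeuN+. The exchange factor gene Kalrn had the largest prefrontal increase, at 41.6 and 42.5 in NeuN+ against 1.40 and 1.23 in NeuN- (18.6-fold, limma adjusted p = 1.1e-07). Itsn2, which encodes an endocytic adaptor, had the largest cerebellar decrease, 9.49-fold (limma adjusted p = 8.2e-07). Of 23 effectors of semaphorins and plexins, 8 were higher and 8 lower in prefrontal NeuN+, and 7 higher and 13 lower in cerebellar NeuN+. There Dpysl4, of the collapsin response mediator family, was 2.58-fold higher (limma adjusted p = 2.6e-05), and Trem2, a microglial receptor gene, was 4.83-fold lower (limma adjusted p = 2.3e-05). Of 22 Slit and Robo effectors, 8 were higher and 7 lower in prefrontal NeuN+, and 5 higher and 11 lower in cerebellar NeuN+, where Srgap3 and Srgap1, whose products bind Robo receptors, were 2.26-fold higher and 2.89-fold lower (limma adjusted p = 1.9e-06 and 1.0e-05). Of 25 netrin effectors, 11 were higher and 8 lower in prefrontal NeuN+, and 5 higher and 13 lower in cerebellar NeuN+. Dock1, an exchange factor gene for Rac, was 6.41-fold lower in prefrontal NeuN+ (limma adjusted p = 5.2e-07), and Ablim1, an actin-binding gene, was 4.33-fold higher in cerebellar NeuN+ (limma adjusted p = 4.5e-07). Of 35 other guidance cues and receptors, 20 were higher and 10 lower in prefrontal NeuN+, and 16 higher and 14 lower in cerebellar NeuN+. Flrt3, an adhesion gene that also binds Unc5 receptors, was 2.89-fold higher in prefrontal NeuN+ (limma adjusted p = 1.7e-06), and Mag, a myelin inhibitor of axon growth that is also on the oligodendrocyte marker list, was 12.2-fold and 14.9-fold lower in NeuN+ (limma adjusted p = 3.2e-07 and 3.5e-07).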

How the data were processed

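The 8 tables are gene-level Cufflinks outputs with deposited FPKM, confidence limits and a quantification status, per the file headers. Tools named in the submitters' processing notes are Trim Galore 0.3.7, Bowtie 1.1.1, TopHat2 2.1.1, Bismark, Cufflinks, with build mm9 and no roles. Which annotation was used, and whether strand was, is not stated in the sources used here. No member had a status other than OK, but an exact 0 can be a failed estimate, so such values are given as listed at 0.

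Each library was scaled by a median-of-ratios factor over the 9109 features that reached 1 FPKM in every one of the 8 libraries. The 14376 features that reached 1 FPKM in 2 or more libraries were fitted as log2(scaled FPKM + 1) with limma 3.58.1 (R 4.3.3), using 1 mean per group and a variance trend, which leaves 4 residual degrees of freedom. Adding the pseudocount of 1 understates changes of low genes. Tests were two-sided, with Benjamini-Hochberg adjustment over all features and calls at an adjusted p under 0.05. The 5 comparisons were the gates in each region, the regions in each gate, and how the gate changes differ between regions. The script was tested on simulated data. Of the fragment numbers under 20 that the values imply, 41.8% to 47.8% were within 0.05 of a whole number, so counts were not recovered.

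Replicate numbers did not pair the libraries: deviations of same-numbered libraries correlated at -0.045 to 0.034 between groups. The members, the lists and the naming rule were chosen with earlier results of these data known. The rule gives full values for called members with at least 1 log2 unit of change and 5 scaled FPKM in the higher group (up to 8 per direction and comparison, up to 5 for the difference of gate changes), for the 3 highest members of each group and for Rbfox3. Of each pathway list it allows 2 called genes per direction and gate comparison. Only some of those are given above, and not for every direction and comparison. The other 168 samples of the series were not analysed here.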

Additional observations from a re-analysis of the deposited data

Results flagged for a closer look

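The gate difference (NeuN+ minus NeuN-, log2 scale) was tested between the regions, and is given as cerebellum minus prefrontal cortex for the 5 largest called differences in each direction among members whose highest group reached 5 scaled FPKM on average. Members under that level, such as Sema4d at 1.61 and Robo3 at -1.67, had larger differences than some of these. It was more positive in cerebellum for Efna1 by 3.10 (SE 0.14, limma adjusted p = 9.9e-06), for Unc5b by 2.14 (SE 0.12), for Epha3 by 1.37 (SE 0.14), for Sema4f by 1.15 (SE 0.09) and for Ephb1 by 1.03 (SE 0.12). It was more negative in cerebellum for Epha10, at -4.33 (SE 0.21, limma adjusted p = 1.1e-05), for Sema4a, at -2.998 (SE 0.25), for Ephb6, at -2.69 (SE 0.11), for Plxna2, at -1.72 (SE 0.09), and for Robo2, at -1.25 (SE 0.10). For Efna1, Ephb1 and Ephb6 the gates stood in opposite order in the regions, with a call in each. Epha3 and Sema4f were higher in NeuN+ in both regions, and by more in cerebellum. For Epha10, Plxna2, Robo2 and Unc5b only the prefrontal gate difference was called, and for Sema4a only the cerebellar one. Because the pseudocount compresses low values, the difference for Robo2, near 0 in every cerebellar library, says little about its cerebellar gates. Robo3 was listed at 0 in every cerebellar library, so its difference is its prefrontal gate change with the sign reversed.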

How the results depend on the processing

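The 47 pairs of member and comparison by which 18 members were named kept their direction and their side of the threshold in all 688 refits under other pseudocounts, filters, scalings, fits and left-out libraries. Of 34 other calls of those members, 10 were lost or turned in at least 1 refit: the prefrontal gate call of Epha4 and Unc5c, the cerebellar one of Epha5 and Plxna3, the regional call of Plxna3 in NeuN+ and of Sema4f in NeuN-, and the difference of gate changes for Efnb3, Epha7, Plxnb1 and Sema6d. Counts of called members stayed within 1.5 times of the reported ones in 134 of 146 refits. With a filter at 5 FPKM, which leaves 18 members to test, members called higher and lower numbered 11 and 6 in the prefrontal gate comparison, 5 and 8 in the cerebellar one, 10 and 8 between regions in NeuN+, 9 and 7 between regions in NeuN-, and 5 and 12 for the difference of gate changes. Quantile normalization gave 26 members called higher in cerebellar NeuN+. Under it Epha5, Nrp1 and Robo1 changed sign in that comparison; the cause was not tested. Leaving out single libraries gave 11 to 16 members called lower in prefrontal NeuN+, the lowest without prefrontal NeuN- replicate 2. Other scalings shifted the median of all features from -0.01 to between -0.19 and 0.14 in the prefrontal gate comparison and from 0.02 to between -0.13 and 0.26 between the regions in NeuN-. They moved the share of higher calls over all features from 48.2% to between 36.1% and 59.9% in the former, from 51.0% to between 42.7% and 62.1% in the latter, from 45.3% to 55.8% in the cerebellar gate comparison and from 47.2% to between 37.7% and 57.6% for the difference of gate changes. For that difference, a pseudocount of 0.1 turned the sign for Ntn1, Plxnb1 and Plxnb3. With the replicate block, 31 members were called higher and 19 lower in the prefrontal gate comparison, and 12 and 23 in the cerebellar one. Depth limits what can be said of members under 1 FPKM.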
